A study of Homo sapiens with 12 samples.

Results

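The experiment examined here is the forced expression of ING1b lacking its PHD domain, written ING1bΔPHD, set against empty vector. Its members are the 2 ING1bΔPHD arrays and the 2 Control arrays, chosen by their sample titles, 4 of the 12 arrays in the series. All cells were HEK293T, a human embryonic kidney line that carries the SV40 large T antigen, a viral protein that binds p53. Each group came from 2 independently transfected cultures harvested 48 h after transient transfection. ING1bΔPHD cells received a plasmid for human ING1b without its PHD domain, and Control cells received the empty plasmid. For comparison, ING1b cells received the full-length human protein, GADD45a+ING1bΔPHD cells received human GADD45a with the shortened protein, and GADD45a cells received GADD45a alone. The share of cells that took up plasmid is not given in the sources used here.

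ING1b is the best-studied form of ING1, a tumour suppressor that binds chromatin. Its PHD finger reads histone H3 that is trimethylated on lysine 4, the mark of active promoters, while its other end joins the SIN3 histone deacetylase complex. A protein without the finger keeps the second contact and lacks the first, so the experiment asks what the rest of the protein does to gene expression. In bulk RNA, fewer expressing cells and less RNA per cell cannot be told apart.

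Expression was read on Illumina bead arrays, and values are log2 normalized intensities unless another scale is named. On the ING1bΔPHD arrays 14555 and 15072 of 47323 probes were detected, against 16070 and 16301 on the Control arrays, and the other 8 arrays had 14992 to 16038. The ING1bΔPHD arrays correlated with each other at 0.985 across 10645 genes and the Control arrays at 0.980, the lowest of the 6 groups. The mean absolute difference between replicates was 0.28 in ING1bΔPHD and 0.31 in Control on the log2 scale. The number of arrays, 2 a group, limits the precision of each value. Of 13 HEK293 markers 10 were measured, and KRT18, NEFL, NEFM, INA, CDH2, TUBB and EPCAM were detected on all 12 arrays, while KRT19 and PAX2 were detected on 0 and NEFH on 1. Vimentin (VIM) was at 12.55 and 13.04 in ING1bΔPHD cells and 12.59 and 13.09 in Control cells. Of 13 blood markers 4 were measured, and the probes for PTPRC and CD3E were not detected on any of the 12 arrays, while CD68 and HBA2 were detected on 12 and CD14 on 11. Of 15 fibroblast markers 5 were measured, and COL1A2 and COL3A1 were not detected on any array, while ACTA2 and TWIST1 were detected on 12, LUM on 10 and COL1A1 on 9. Of 11 epithelial markers 2 were measured.

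The targeted gene gave no check of the construct. ING1 has 4 probes, of which 1 was detected, at 7.02 and 6.80 in ING1bΔPHD cells and 6.88 and 6.48 in Control cells. The values overlapped, with a difference of 0.23 (SE 0.18, limma adjusted p = 0.65, n = 2 a group). In the ING1b cells the same probe read 7.11 and 6.85. Whether this probe lies in the plasmid's insert was not analysed here. GADD45A went against its labels: 1 of its probes had raw intensities of 128 to 160 on the 6 arrays labelled with GADD45a, and of 744 to 1088 on the ING1bΔPHD, ING1b and Control arrays. Its brighter probe went the same way, at 859 to 1127 on the labelled arrays and 1152 to 1851 on the ING1bΔPHD, ING1b and Control arrays. Differences among those 3 groups use none of the arrays labelled with GADD45a, although all 12 arrays share 1 estimate of the spread. Whether the labels with and without GADD45a were exchanged was not tested, and in that case those 3 groups would hold GADD45a. All groups are therefore called by their labels, and directions that rest on them rest on the labels.

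Against empty vector, no gene passed for ING1bΔPHD. Of 10645 genes 0 rose and 0 fell at an adjusted p of 0.05 in limma (0% called), and the smallest adjusted p was 0.228. At an unadjusted p under 0.05 there were 1179 genes, 11.1% of those tested, 504 higher (4.73%) and 675 lower (6.34%). Differences of at least 2-fold were seen for 41 genes, 17 higher and 24 lower, and the median difference over all genes was -0.01. A fit with replicates blocked called 3 genes (0.0282%): SNORD89 higher, RENBP and PARD6A lower. The median 95% interval, not adjusted for the number of genes, reached 0.45 to either side on the log2 scale. Passing after adjustment took a larger difference than that: SNORD89, at 1.14 (SE 0.17), did not pass. The absence of calls therefore does not exclude differences well above 0.45 for a typical gene.

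Removing the PHD domain was also tested directly, with no Control array in the contrast. Against full-length ING1b, 54 genes passed in ING1bΔPHD cells (0.507% of 10645 called), 47 lower (0.442%) and 7 higher (0.0658%). Genes that fell included DHRS2, LGALS1, TUBB3, 5 histone genes and GADD45B, and those that rose included NOP53 and CCDC22. Of the 47 genes that fell, 29 were undetected in ING1bΔPHD cells, 19 of them in Control cells too, and for these the difference from Control was not measured on both sides. The 16 that were detected on all ING1bΔPHD and Control arrays had a median ING1bΔPHD minus Control of -0.16 (range -1.38 to 0.85). For 12 of the 16 the 95% interval held 0, as it did for 89.7% of all genes detected on those arrays. The count fell to 6 without ING1b replicate 1, 17 without ING1b replicate 2, 15 without ING1bΔPHD replicate 1 and 14 without ING1bΔPHD replicate 2, and was 120 (1.13%) with the replicate block, 98 lower and 22 higher. Full-length ING1b against Control, which shares the ING1b arrays with this contrast, had 46 genes called (0.432%). Among them were 28 of the 47 that fell and 6 of the 7 that rose. The shared ING1b arrays build in part of that overlap, so it is no separate result.

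**Figure D1:**
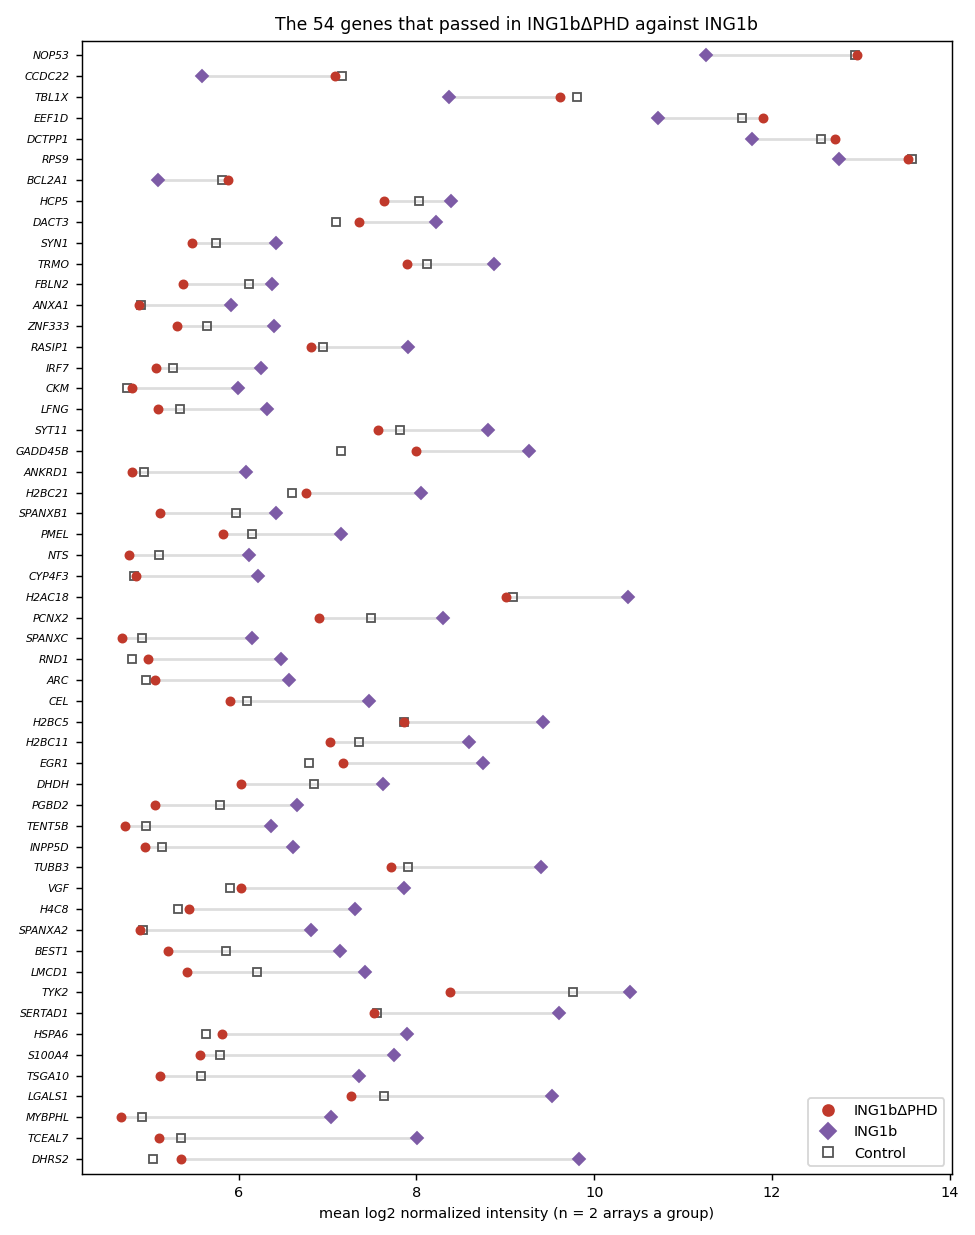
Mean log2 normalized intensity (horizontal axis) of the 54 genes (rows) that passed in ING1bΔPHD against ING1b, with filled circles for ING1bΔPHD, diamonds for ING1b and open squares for Control (n = 2 arrays a group, grey lines join ING1bΔPHD and ING1b). The circle of TYK2 lies left of its square and that of GADD45B right of its square. Of the 47 genes that fell, 29 were undetected in ING1bΔPHD cells and 19 of these in Control cells too. Their positions there are means of undetected signal, which are neither measured levels nor the bounds given in the text.

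DHRS2, a mitochondrial and nuclear short-chain dehydrogenase, had the largest such difference. It read 5.42 and 5.28 in ING1bΔPHD cells, 9.75 and 9.91 in ING1b cells, and 4.91 and 5.18 in Control cells. The probe was not detected on any ING1bΔPHD or Control array, so its level there is bounded by the detection floor. That floor gives ING1bΔPHD at least 13.8-fold below ING1b (adjusted p = 5.85e-05 in limma). Each such bound puts the undetected arrays at the lowest signal that array detected. A second DHRS2 probe, also undetected in ING1bΔPHD and Control cells, was at least 6.83-fold below ING1b.

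The promoter sequences of 3 genes are shown because their levels follow 3 different orders across the groups: DHRS2 near the floor in ING1bΔPHD and Control alike, GADD45B between ING1b and Control, and TYK2 below both. Each is the 250 bases before the gene's start in RefSeq, build GRCh38.p14, read 5′ to 3′ on the gene's strand. Capitals mark each CG, the dinucleotide that DNA methylation acts on.
DHRS2 (chr14:23629865-23630114, plus strand): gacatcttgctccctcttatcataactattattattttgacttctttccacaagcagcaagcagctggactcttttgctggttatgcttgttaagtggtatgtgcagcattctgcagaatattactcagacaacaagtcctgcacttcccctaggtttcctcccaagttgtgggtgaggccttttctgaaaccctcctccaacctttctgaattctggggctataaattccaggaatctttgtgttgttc
GADD45B (chr19:2475877-2476126, plus strand): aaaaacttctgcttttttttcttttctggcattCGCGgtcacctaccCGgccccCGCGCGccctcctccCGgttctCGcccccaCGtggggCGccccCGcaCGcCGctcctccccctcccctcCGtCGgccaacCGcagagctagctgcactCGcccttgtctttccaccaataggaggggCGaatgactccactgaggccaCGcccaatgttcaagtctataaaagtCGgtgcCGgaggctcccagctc
TYK2 (chr19:10380573-10380822, minus strand): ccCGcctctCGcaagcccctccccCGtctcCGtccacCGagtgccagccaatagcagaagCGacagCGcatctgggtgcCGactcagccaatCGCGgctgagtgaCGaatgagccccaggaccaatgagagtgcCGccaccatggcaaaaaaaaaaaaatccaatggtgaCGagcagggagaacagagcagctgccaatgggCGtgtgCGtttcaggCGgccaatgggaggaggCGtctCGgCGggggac
The DHRS2 window holds 0 CG, as do 6.06% of 35116 promoter windows of this length, whose median is 11. GADD45B holds 21 and TYK2 holds 19, counts reached or passed by 30.2% and 34.6% of the windows. TATAAA, searched on both strands, is in the DHRS2 and GADD45B windows, not in that of TYK2, and in 10.7% of all windows.

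**Figure D2:**
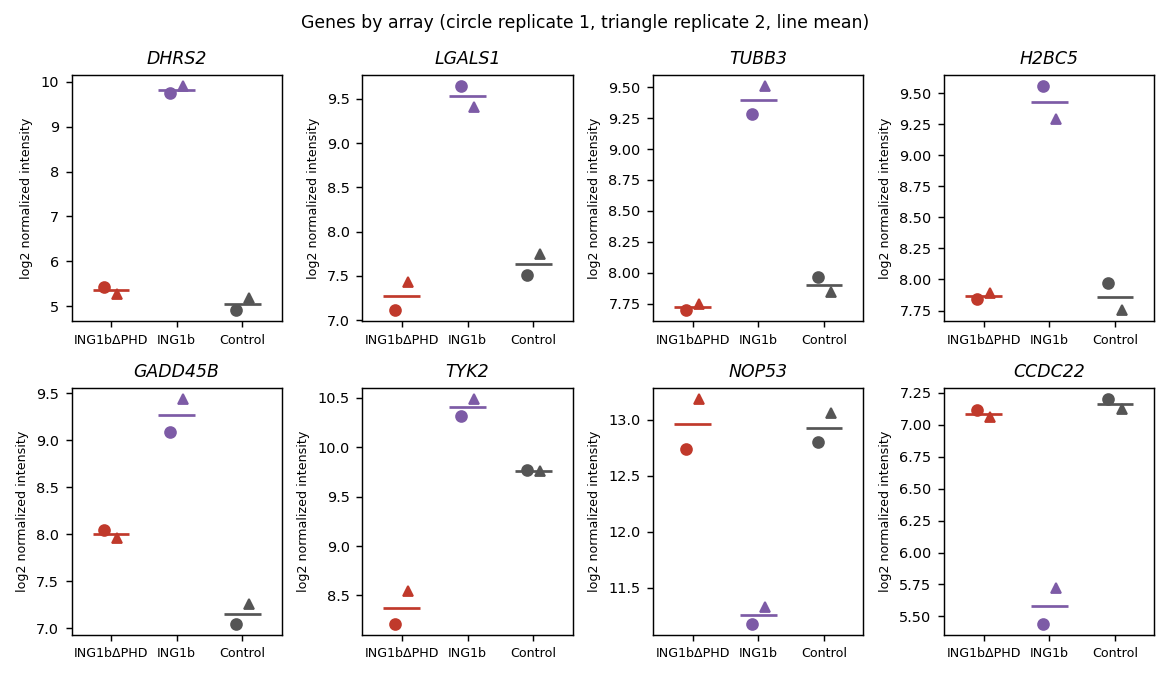
Log2 normalized intensity (vertical axis, a separate range for each gene) of 8 genes in ING1bΔPHD, ING1b and Control cells, with a circle for replicate 1, a triangle for replicate 2 and a line at the mean. The ING1bΔPHD points of DHRS2, LGALS1, TUBB3, H2BC5, NOP53 and CCDC22 are closer to Control than to ING1b, GADD45B lies between ING1b and Control, and TYK2 lies below both.

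Other genes that fell against ING1b were detected in all 3 groups or undetected in ING1bΔPHD cells, in some cases in Control cells too. LGALS1, which encodes galectin-1, a sugar-binding protein, read 7.11 and 7.43 in ING1bΔPHD cells, 9.65 and 9.41 in ING1b cells, and 7.51 and 7.75 in Control cells. It fell by 2.26 against ING1b (SE 0.18, adjusted p = 0.000499 in limma), 4.78-fold lower, and no ING1bΔPHD array reached an ING1b array. TUBB3, a neuronal beta-tubulin, read 7.70 and 7.74 in ING1bΔPHD cells, 9.29 and 9.51 in ING1b cells, and 7.97 and 7.84 in Control cells. Its fall was 1.68 (SE 0.15, adjusted p = 0.00088 in limma), while its difference from Control was -0.18 (95% interval -0.51 to 0.14). TCEAL7 and MYBPHL were not detected in ING1bΔPHD or Control cells and were at least 3.91-fold and 1.99-fold below ING1b. SERTAD1, a transcriptional coregulator, fell by 2.08 against ING1b, to 7.71 and 7.35 in ING1bΔPHD cells, against 9.82 and 9.40 in ING1b cells. HSPA6, a strictly inducible HSP70 chaperone, was at least 3.62-fold lower by its brightest probe, while a second probe was undetected in all 3 groups. VGF, a secreted neuropeptide precursor, fell by 1.84. INPP5D, an inositol phosphatase, was undetected in ING1bΔPHD and Control cells alike, and at least 1.49-fold below ING1b. S100A4, a calcium-binding protein, was at least 3.25-fold lower by its brightest probe. A second S100A4 probe was undetected in ING1bΔPHD cells, at 5.09 and 4.97. That probe was detected in ING1b cells, at 7.06 and 7.09, and in Control cells, at 5.84 and 6.09. S100A4 is also 1 of the 5 measured fibroblast markers, whose summed linear intensities were 1498 and 1597 in ING1bΔPHD cells, 1482 and 1418 in ING1b cells, and 1636 and 2023 in Control cells. TUBB3 and VGF are 2 of the 7 measured neuronal markers, with sums of 5169 and 5753 in ING1bΔPHD cells, 5500 and 6309 in ING1b cells, and 5485 and 4703 in Control cells. The part of other cell types in these results was not tested. Of the 54 genes, 8 passed in the same direction under each alternative setting in which they could be tested: DHRS2, H2BC5, INPP5D, LGALS1, MYBPHL, SPANXA2, TCEAL7 and TUBB3. INPP5D, MYBPHL and SPANXA2 could be tested under 16 settings, and the other named genes under 18 or 19. The settings missed for INPP5D, MYBPHL and SPANXA2 include leaving out ING1b replicate 1, which left them detected on too few arrays.

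Histone genes made a group of 20 measured out of 47 listed. In ING1bΔPHD against ING1b their median difference was -0.80, beside -0.01 over all genes, and -0.44 without background correction. Of the 20, 5 fell (0.442% of all genes did) and 0 rose, and with the replicate block 8 fell. H2BC5 read 7.84 and 7.89 in ING1bΔPHD cells, 9.56 and 9.29 in ING1b cells, and 7.97 and 7.75 in Control cells, a fall of 1.56 against ING1b (SE 0.15, adjusted p = 0.00201 in limma). H2BC11, H2AC18 and H2BC21 also fell, and were detected on all ING1bΔPHD, ING1b and Control arrays. H4C8 fell too, but was undetected in ING1bΔPHD and Control cells, and at least 2.41-fold below ING1b. Members kept through detection with full-length ING1b, like H4C8, could mostly only fall here. For such members the share of all genes is not a like background. Against Control the histone median was -0.12, 0 of the 20 passed, and 6 had ING1bΔPHD arrays below both Control arrays, where 20.6% of all genes did. These messages come from closely related gene copies, so a probe may also read a neighbouring copy.

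Germline genes of the cancer-testis class, normally silent outside the testis, gave 9 measured genes out of 38. Their median was -0.81 in ING1bΔPHD against ING1b, and -0.31 without background correction. The list's median level was 5.21 and 5.10 in ING1bΔPHD cells, below the lowest detected signal on those arrays, and 6.09 and 6.32 in ING1b cells. Members kept through detection on arrays with full-length ING1b could mostly only fall here. The median and the count of falls are therefore partly set by that filter, and the share of all genes is not a like background. Of the 9, 3 fell, where 0.442% of all genes did: SPANXA2, SPANXB1 and SPANXC. All 3 were undetected in ING1bΔPHD cells, SPANXB1 was detected in Control cells, and SPANX copies are nearly identical, so the 3 are not separate observations. SPANXA2 read 4.67 and 5.10 in ING1bΔPHD cells, 6.83 and 6.79 in ING1b cells, and 5.13 and 4.72 in Control cells.

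The 7 genes that rose against ING1b were NOP53, CCDC22, TBL1X, RPS9, EEF1D, DCTPP1 and BCL2A1. NOP53, a nucleolar ribosome assembly factor, read 12.74 and 13.19 in ING1bΔPHD cells, 11.18 and 11.33 in ING1b cells, and 12.80 and 13.06 in Control cells. It rose by 1.71 (SE 0.21, adjusted p = 0.00585 in limma), 3.27-fold. CCDC22, part of an endosomal sorting complex, read 7.11 and 7.06 in ING1bΔPHD cells and 7.20 and 7.12 in Control cells, and it was undetected in ING1b cells, which puts it at least 2.38-fold higher than in ING1b. TBL1X, a subunit of a nuclear corepressor, rose by 1.25, and RPS9, a ribosomal protein, by 0.79. Of 66 ribosomal protein genes RPS9 alone passed against ING1b, and the median of the 66 in that comparison was -0.02. EEF1D and DCTPP1 rose by 1.19 and 0.93, but a second probe of each differed by 0.11 and 0.09. BCL2A1 passed while undetected in both groups, so no size is given.

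GADD45B was placed between the groups. This stress-response gene, a relative of GADD45A, read 8.04 and 7.96 in ING1bΔPHD cells, 9.09 and 9.44 in ING1b cells, and 7.05 and 7.25 in Control cells. The 3 groups do not overlap. It fell by 1.27 against ING1b (SE 0.17, adjusted p = 0.00886 in limma). Against Control it stood 0.85 higher (SE 0.17, adjusted p = 0.25), 1.80-fold, and did not pass. With GADD45a in the label it read 7.83 and 7.63 in cells labelled GADD45a+ING1bΔPHD, against 6.85 and 6.91 in cells labelled GADD45a, 0.85 higher (adjusted p = 0.622). Over both pairs of groups, 4 arrays against 4, it was 0.85 (SE 0.12, adjusted p = 0.121 in limma).

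Other early-response genes were compared beside it. Of 23 measured genes of the GADD45 and immediate-early list, 0 passed against Control and 9 had ING1bΔPHD arrays above both Control arrays, where 17.6% of all genes did, and 5 below both, where 20.6% did. EGR1, a zinc finger factor switched on by growth signals, read 7.37 and 6.97 in ING1bΔPHD cells, 8.88 and 8.62 in ING1b cells, and 6.78 and 6.80 in Control cells. Against ING1b it fell by 1.58 (SE 0.25, adjusted p = 0.0241 in limma), and against Control it was 0.38 higher (adjusted p = 0.587). FOSB was 0.53 higher than in Control and -1.22 from ING1b, and passed in neither comparison; with the replicate block the second adjusted p was 0.0328. GADD45A itself, by its brighter probe, differed by -0.20 from Control.

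TYK2, a Janus kinase of interferon and interleukin signalling, went below both other groups. It read 8.22 and 8.54 in ING1bΔPHD cells, 10.32 and 10.49 in ING1b cells, and 9.77 and 9.75 in Control cells. It fell by 2.02 against ING1b (SE 0.28, adjusted p = 0.0106 in limma), 4.07-fold lower. Against Control it was -1.38 (SE 0.28, adjusted p = 0.25), and cells labelled GADD45a+ING1bΔPHD, at 7.74 and 8.79, were -1.81 from those labelled GADD45a, at 10.12 and 10.04 (adjusted p = 0.5). Over both pairs of groups TYK2 was -1.60 (SE 0.20), with the smallest adjusted p of that comparison, 0.0979, which was 0.0396 with the replicate block. All 4 arrays labelled with the shortened protein lay below the 6 arrays of the ING1b, GADD45a and Control groups. Of 16 measured interferon-stimulated genes 0 passed against Control, with a median of -0.18. Against ING1b their median was -0.52 (-0.31 without background correction), and 13 lay below both ING1b arrays, where 19.7% of all genes did. Of the 16, 1, IRF7, fell against ING1b (0.442% of all genes did), and 2 with the replicate block. IRF7 was undetected in ING1bΔPHD and Control cells, and at least 1.16-fold below ING1b. It kept its call in 7 of 18 alternative settings. List members kept through detection with full-length ING1b could mostly only fall here, so the shares of all genes are not a like background for them.

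The genes of smallest p against Control are given as values, since none passed. SNORD89, a C/D box small nucleolar RNA, read 8.70 and 8.74 in ING1bΔPHD cells and 7.65 and 7.52 in Control cells, 1.14 higher (SE 0.17, adjusted p = 0.228, and 0.039 with the replicate block). RENBP, an enzyme of amino sugar metabolism, read 5.66 and 5.85 in ING1bΔPHD cells and 7.00 and 7.11 in Control cells; undetected in the first, it was at least 2.02-fold lower (adjusted p = 0.25, and 0.039 with the block). Both lay outside the range of the other group's arrays. PARD6A, a cell polarity protein, differed by -0.97 (adjusted p = 0.25, and 0.0468 with the block).

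Among the other higher genes were CXCR4, the receptor for the chemokine CXCL12, at 8.28 and 8.62 in ING1bΔPHD cells and 7.48 and 6.75 in Control cells. A second probe differed by 0.73, and the remaining probe was undetected in both groups. ARMCX3, an outer mitochondrial membrane protein that acts in mitochondrial transport, read 9.16 and 9.58 in ING1bΔPHD cells and 8.55 and 8.62 in Control cells. It was 0.78 higher here, 0.74 higher with GADD45a, and 0.97 higher by a second probe; over both pairs its adjusted p was 0.139, and 0.0399 with the block. TRMT44, a tRNA methyltransferase, was undetected in Control cells and at least 2.07-fold higher, whereas its second probe was undetected in ING1bΔPHD cells, at 5.74 and 5.85, and detected in Control cells, at 6.22 and 6.30. RETSAT, which acts on retinol, was 0.84 higher and the meiotic cohesin REC8 at least 1.59-fold higher.

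On the lower side, CD320, the receptor that takes up transcobalamin, read 9.39 and 9.30 in ING1bΔPHD cells and 10.22 and 10.04 in Control cells. COX20, an assembly factor of cytochrome oxidase, was -0.98 and the aldehyde dehydrogenase ALDH1A3 was -0.65. GGACT, an enzyme that breaks down protein crosslinks, was undetected in ING1bΔPHD cells, at 5.30 and 4.97, against 6.30 and 7.44 in Control cells, and at least 1.78-fold lower. TLCD1 was at least 1.64-fold lower. ASB13, ZNF583, TMED1, TMEM174, LRRN2, USE1, TMEM268 and ARMCX2 completed the 15 genes of smallest p on this side, with fitted differences from -1.12 to -0.67; ZNF583, TMEM174 and ARMCX2 were undetected in ING1bΔPHD cells.

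**Figure D3:**
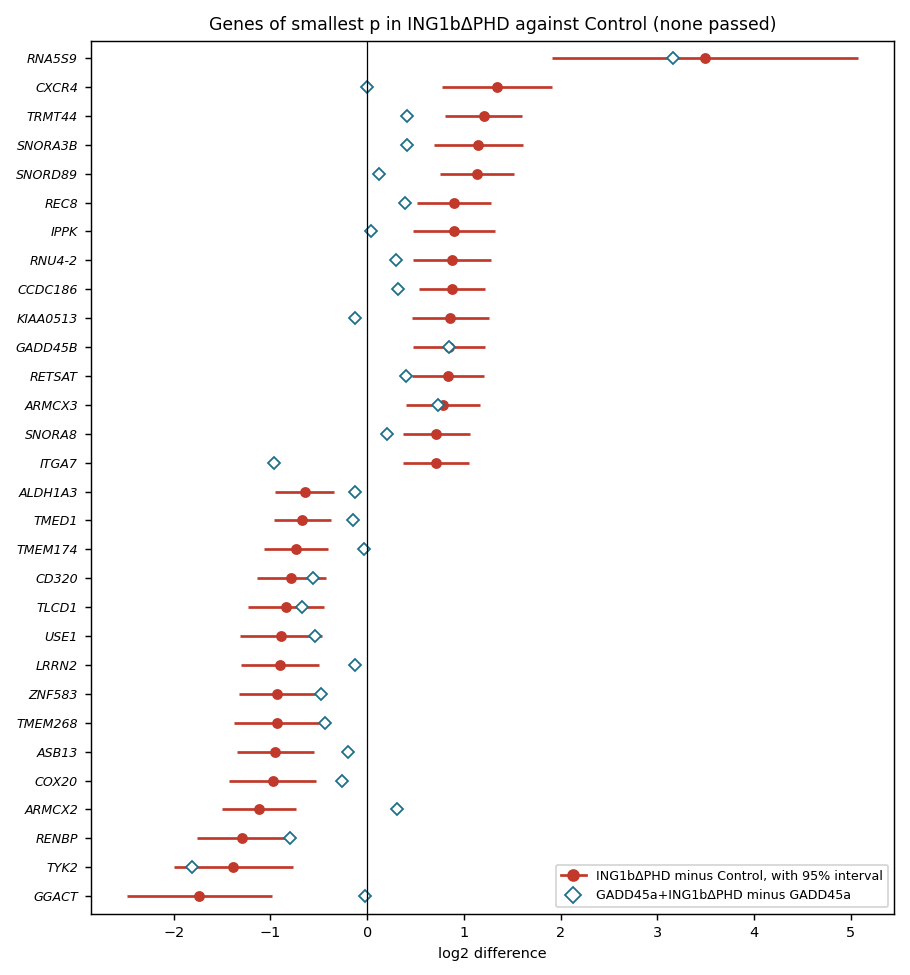
Log2 differences (horizontal axis) of the 15 higher and 15 lower genes of smallest p in ING1bΔPHD against Control, filled circles with 95% intervals from limma, and the same genes in GADD45a+ING1bΔPHD against GADD45a, open diamonds. GADD45B, ARMCX3, RNA5S9 and TYK2 have diamonds inside the interval of the circle, while ITGA7, CXCR4 and ARMCX2 have diamonds near 0 or across it.

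The comparison was repeated where GADD45a was also expressed, by label, on arrays not shared with the first. In GADD45a+ING1bΔPHD against GADD45a 0 genes passed, 564 had an unadjusted p under 0.05 (5.3% of those tested), and the smallest adjusted p was 0.5. Over both pairs of groups 0 passed, with 1166 at an unadjusted p under 0.05 (11%) and 3 with the block (0.0282%). The test of the difference between the pairs called 0 genes, with 485 at an unadjusted p under 0.05 (4.56%). Its smallest adjusted p, 0.174, was for ITGA7, an integrin chain, which was not detected in ING1bΔPHD or Control cells. CXCR4 was 1.34 higher without GADD45a and -0.01 with it, a difference of -1.35 (SE 0.36, adjusted p = 0.997 in limma). The differences of all genes in the 2 pairs correlated at 0.253 across genes, which are not independent replicates.

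Small RNAs were mostly higher in ING1bΔPHD cells than in Control cells, though none passed. They are noncoding RNAs that guide the modification of ribosomal RNA, splice messages or regulate the polymerase. Of the 120 measured genes 0 passed (1, SNORD89, with the block), while 106 had a positive difference, where 48.5% of all genes did. In 80 of them both ING1bΔPHD arrays exceeded both Control arrays, where 17.6% of all genes did, and in 2 both were below. At an unadjusted p under 0.05, 47 were higher, where 4.73% of all genes were, and 0 were lower. The median difference was 0.50, beside -0.01 over all genes, and 0.24 without background correction.

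Classes differed in size. The 52 C/D box genes (SNORD), which guide methylation, had a median of 0.62 and 50 positive differences. The 42 H/ACA box genes (SNORA), which guide pseudouridylation, had a median of 0.51 and 35 positive. The 9 genes with RNU symbols, most of them spliceosome RNAs, had 0.48, the 7 Cajal body RNAs (SCARNA) 0.16, and 9 others 0.22. SNORA3B read 6.99 and 7.49 in ING1bΔPHD cells and 6.07 and 6.12 in Control cells. RNU4-2, the U4 RNA, read 7.40 and 7.68 in ING1bΔPHD cells and 6.64 and 6.68 in Control cells. SNORA12 went the other way at -1.14, with Control arrays far apart at 7.47 and 9.93.

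The Control arrays were the lowest of all 12 for this group. The median level of the 120 genes was 6.90 and 6.87 on the ING1bΔPHD arrays and 6.46 and 6.29 on the Control arrays. ING1b arrays stood at 6.78 and 6.74 and GADD45a arrays at 6.77 and 6.71, also above Control. The median difference was 0.28 in ING1b against Control, a comparison that shares the Control arrays. Without Control arrays it was 0.18 in ING1bΔPHD against ING1b and 0.12 in GADD45a+ING1bΔPHD against GADD45a. The ING1bΔPHD arrays also had fewer detected probes than the Control arrays, as given above, and the part of this in the result was not tested. The labelling kit primes from poly(A), which most mature small RNAs lack, and how they were labelled was not tested.

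**Figure D4:**
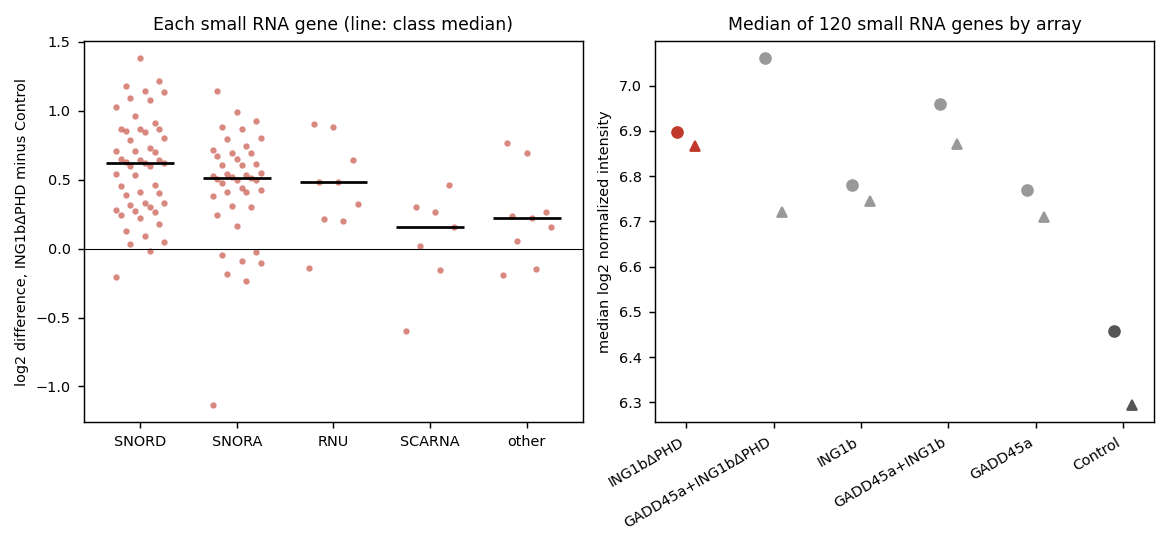
Left, log2 difference of ING1bΔPHD minus Control for each small RNA gene by class, with a line at the class median (RNA5S9, at 3.49, is off this panel). Right, median log2 normalized intensity of the 120 genes on each array, circles for replicate 1 and triangles for replicate 2, where both Control arrays are below the other 10.

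RNA5S9, a probe for 5S ribosomal RNA, had the largest fitted difference from Control of the 10645 genes. It read 11.43 and 13.27 in ING1bΔPHD cells, 13.94 and 13.57 in ING1b cells, and 9.80 and 7.92 in Control cells. Against Control it was 3.49 higher (SE 0.71, adjusted p = 0.25 in limma), and over both pairs of groups 3.32 higher (adjusted p = 0.139). Groups did not overlap, but replicates stood far apart in both ING1bΔPHD and Control. Many 5S copies are identical, so the probe does not tell them apart.

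The list of ING family and SIN3 complex genes had 19 measured members of 21. The SIN3 complex is the contact that the shortened protein keeps, and binding was not measured here. Against Control the median was 0.19, 0 passed, 9 had both ING1bΔPHD arrays above both Control arrays (17.6% of all genes), and 2 below (20.6%). With median scaling the list median was 0.09, and without background correction 0.11. SIN3A, the scaffold, read 10.52 and 10.90 in ING1bΔPHD cells and 10.33 and 10.22 in Control cells. HDAC1 and HDAC2, the deacetylases, differed by 0.11 and 0.03. BRMS1, a further subunit, was 0.58 higher with an adjusted p of 0.434. ING2, the relative nearest to ING1, read 8.86 and 9.02 in ING1bΔPHD cells, 8.40 and 8.31 in ING1b cells, and 8.63 and 8.56 in Control cells. A second ING2 probe, named after its values were seen, read 9.45 and 9.82 in ING1bΔPHD cells, 6.90 and 7.06 in ING1b cells, and 9.49 and 9.26 in Control cells. With all detected probes tested singly it was 2.65 higher in ING1bΔPHD than in ING1b (SE 0.22, adjusted p = 0.000895), while the first ING2 probe was 0.58 higher (adjusted p = 0.158).

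Some gene lists depended on which Control array was used. The unfolded protein and ATF4 response list, genes induced by amino acid shortage and protein stress, had 36 measured members of 38 and a median of -0.31 against Control. None passed, and 14 lay below both Control arrays, where 20.6% of all genes did. Against Control replicate 1 the medians were -0.07 and -0.03 for the ING1bΔPHD replicates, and against Control replicate 2 they were -0.72 and -0.54. TRIB3, a target of ATF4, read 8.95 and 8.96 in ING1bΔPHD cells and 9.38 and 11.34 in Control cells. DDIT3 read 7.60 and 8.14 in ING1bΔPHD cells and 6.86 and 9.55 in Control cells. Control replicate 2 was the highest of the 4 arrays for both genes, and for DDIT3 Control replicate 1 was the lowest.

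The heat shock list also depended on the Control array. The 19 measured of 25 had a median of 0.23 against Control, from -0.10 to -0.01 with Control replicate 1 and from 0.38 to 0.56 with Control replicate 2. HSPA1B, an inducible chaperone, read 13.57 and 13.60 in ING1bΔPHD cells and 13.53 and 11.66 in Control cells. Without Control replicate 1, 24 genes passed in ING1bΔPHD against Control (0.228% of those tested), 8 higher and 16 lower, 5 of them ATF4 list members: TRIB3, MTHFD2, CTH, ASNS and CEBPG. These calls rest on Control replicate 2 alone, with the spread supplied by the remaining groups. Without Control replicate 2 none passed. Hypoxia and glycolysis genes, 31 of 34 measured, had a median of 0.22 and followed the ING1bΔPHD array instead: -0.02 and 0.01 for replicate 1, and 0.32 and 0.39 for replicate 2. With median scaling the hypoxia and glycolysis median was 0.10 and the heat shock median 0.13.

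**Figure D5:**
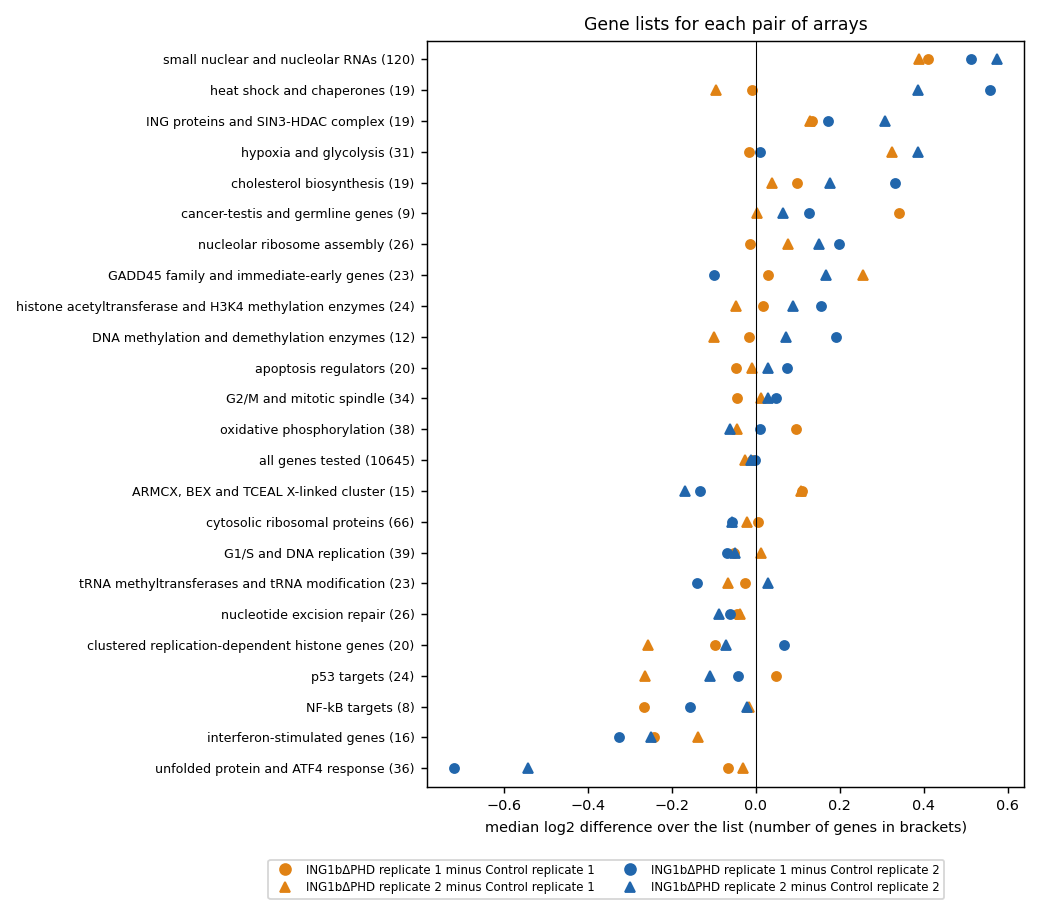
Median log2 difference of ING1bΔPHD minus Control over each gene list (rows, genes measured in brackets), for each of the 4 pairs of arrays: circles and triangles are ING1bΔPHD replicates 1 and 2, orange is Control replicate 1 and blue Control replicate 2. The small RNAs are right of 0 in all 4 pairs, and the ATF4 list is at -0.72 and -0.54 with Control replicate 2 and at -0.07 and -0.03 with Control replicate 1.

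Other lists are given by their medians, beside -0.01 over all genes. Medians against Control were -0.04 for 39 G1/S and replication genes, 0.00 for 34 G2/M genes, -0.01 for 66 cytosolic ribosomal proteins, 0.10 for 26 nucleolar ribosome assembly genes (19 positive, 7 above and 0 below both Control arrays) and 0.01 for 38 oxidative phosphorylation genes. The 24 p53 targets had -0.04, with CDKN1A at 10.75 and 10.62 in ING1bΔPHD cells and 10.49 and 10.56 in Control cells. PMAIP1, which encodes the death protein Noxa, was -1.04 with an adjusted p of 0.292. For 26 excision repair genes the median was -0.05, and for 12 DNA methylation and demethylation enzymes 0.05. MBD1, which binds methylated DNA, read 6.44 and 6.92 in ING1bΔPHD cells and 5.93 and 6.04 in Control cells, with an adjusted p of 0.304. None of these lists held a gene that passed against Control. PARD6A, SERTAD1, SIN3A, HDAC1, HDAC2, BRMS1, DDIT3, CDKN1A, TRIB3 and HSPA1B were named after their values were seen.

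Detection changed for few genes. In ING1bΔPHD 1 gene was gained against Control, being detected on both arrays at p under 0.01 and at p of 0.05 or above on both of the others, and 29 were lost. The gained gene was BNIPL, at 6.17 and 6.29 in ING1bΔPHD cells and 5.33 and 5.24 in Control cells. The brightest of those lost were GGACT, PJVK, TK2, SNRPN and FAM229B. ING1b had 28 gained and 14 lost against the same Control arrays, which had the most detected probes in the series.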

How the data were processed

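The deposited scanner table holds an intensity for each probe and array, not normalized between arrays, and a detection p-value, per the file headers and values. The authors also deposited intensity values with equal quantiles across arrays, used as an alternative. GenomeStudio 2011.1 is given by the submitters' processing notes; its options were not stated. Intensities were background-corrected with nec (limma 3.58.1, R 4.3.3), offset 16, quantile-normalized and taken to log2. Probes detected at p under 0.01 on at least 2 of 12 arrays were kept (17814 of 47323), and the brightest named each of 10645 genes; of 30113 probes with 1 symbol 30074 matched RefSeq. A limma model with a mean per group was fitted to 12 arrays, with Benjamini-Hochberg adjustment over all genes. p-values rest on the spread between the 2 transfections of a group, pooled over the 6 groups and drawn toward a value common to all genes. Replicate numbers were checked for pairing: deviations correlated at 0.246 to 0.477 over 15 pairs of groups (0.252 for ING1bΔPHD with Control), all above 0.1, so values with the block stand where they change a call. Named were the 15 genes of smallest p in each direction with groups that did not overlap, 8 for the other comparisons, list members of smallest p or passing, and genes named earlier for ING1b. Members, lists and tests were chosen with earlier results of these data known. The procedure was tested on simulated data. Alternatives were other background, offset, scaling, filter, probe, model and threshold choices, and leaving out arrays.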

Additional observations from a re-analysis of the deposited data

Results flagged for a closer look

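Signals outside the gene comparisons came from probes that were not the brightest of their gene. A second probe for RN7SK, the RNA that holds the elongation kinase P-TEFb inactive, read 6.78 and 8.15 in ING1bΔPHD cells and 5.22 and 5.42 in Control cells. It read 7.98 and 7.11 in GADD45a+ING1bΔPHD cells and 5.44 and 5.16 in GADD45a cells. In ING1b cells it was also detected on both arrays, at 6.05 and 5.89. It was not detected on the Control or GADD45a arrays, and over both pairs of groups it was at least 3.24-fold higher (fitted difference 2.20, which is no measured size, limma adjusted p = 0.0493 over all detected probes). The brighter RN7SK probe differed by 0.77 from Control (adjusted p = 0.579). A second probe for MED8, a Mediator subunit, read 8.68 and 8.82 in ING1bΔPHD cells, 7.67 and 7.52 in ING1b cells, and 8.21 and 8.45 in Control cells. It was 1.15 higher than in ING1b (SE 0.16, limma adjusted p = 0.0166). By its brightest probe MED8 did not pass against ING1b.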

How the results depend on the processing

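Against Control, 0 genes passed in ING1bΔPHD under each alternative except the replicate block (3) and leaving out Control replicate 1; leaving out 1 array gave 0 to 24. Against ING1b the 54 became 21 with detection on all 12 arrays, 23 with only the groups compared, 22 at an adjusted p under 0.01, 120 with the replicate block, and 6 to 17 with an array left out. Over both GADD45a states the 0 became 4 without background correction, 2 with offset 50, 1 with detection on all 12 arrays, 4 with probes tested singly, 1 with trend and robust, 3 with the block, 0 to 2 with an array left out, and 6 with all detected probes, an alternative chosen after seeing the data. With GADD45a minus without, the 0 became 1 with the authors' deposited values and 0 to 1 with an array left out. For GADD45a+ING1bΔPHD against GADD45a it became 1 without background correction, 1 with trend and robust, and 0 to 2 with an array left out. The 46 genes of ING1b against Control became 24 with detection on all 12 arrays, 25 with only the groups compared, 22 at an adjusted p under 0.01, 85 with the block and 8 to 69 with an array left out. Fewer genes or samples were tested in some of these, and beyond that the cause was not tested. ERI2 reversed to -0.16 against Control with the mean over its probes. ING1 against ING1b, at -0.07, ranged from -0.20 to 0.061 with an array left out, and reversed without ING1b replicate 1 (0.061) and without ING1bΔPHD replicate 2 (0.036). Median scaling shifted all genes by -0.11 against Control; relative to that shift the small RNA median was 0.55, and without background correction it was 0.25. Signal over background limits what can be said of undetected probes, for which folds are lower bounds.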

Other observations

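Bright probes without a gene symbol were also lower with the shortened protein. ILMN_3280565 read 12.10 and 12.19 in ING1bΔPHD cells, 13.40 and 13.61 in ING1b cells, and 13.54 and 13.78 in Control cells. Over both pairs of groups it was -1.41 (SE 0.16, limma adjusted p = 0.0413 over all detected probes). ILMN_3206343 read 11.23 and 11.28 in ING1bΔPHD cells, 12.53 and 12.52 in ING1b cells, and 12.20 and 12.31 in Control cells, and over both pairs it was -0.99 (limma adjusted p = 0.0413).

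A second probe of IP6K1, an inositol hexakisphosphate kinase, read 7.96 and 7.97 in ING1bΔPHD cells, 9.56 and 9.43 in ING1b cells, and 9.66 and 9.16 in Control cells. Over both pairs of groups it was -1.15 (SE 0.13, limma adjusted p = 0.0413). RFESD, read by a second probe, was undetected in ING1bΔPHD cells, at 5.85 and 5.81, against 6.95 and 6.94 in ING1b cells and 6.76 and 6.89 in Control cells. These probes were named after their values were seen. By the brightest probe of each gene, IP6K1 and RFESD passed neither against ING1b nor over both pairs of groups.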
